A study of Mus musculus with 6 samples.

Results

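A group of 10 genes that act on the switch from embryonic or fetal globin to adult globin was followed in *Hic2* conditional mutant and wildtype mouse hearts at E9.5. The genes were listed by name for their known role, as repressors of embryonic and fetal globin genes or as RNA-binding and translation regulators linked to them. The array held a transcript cluster of its own for 9 of the 10, *Bcl11a*, *Sox6*, *Zbtb7a*, *Nr2c1*, *Nr2c2*, *Mbd2*, *Igf2bp1*, *Igf2bp3* and *Hbs1l*, with 1 cluster for each. No cluster was annotated to *Lin28b* alone, so its level was not analysed here. The table held 23332 clusters in all, of which 10439 had a mean above 100 on the linear scale, or 6.64 log2 units, in the higher genotype and were tested, and the 9 measured regulators were among these. None of the 9 passed the test for a difference between genotypes, either at an adjusted p under 0.05 or at an unadjusted p under 0.05, and the interval of each gives how large a difference it could still hold.

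Expression had been measured on 6 Affymetrix exon arrays, which read RNA from whole hearts and here give 1 log2 intensity for each gene-level cluster. The 3 mutant samples were labelled *Mesp1* Cre/+; *Hic2* FL/FL, and the 3 wildtype samples *Mesp1* +/+; *Hic2* FL/FL, so that by the labels both genotypes carried the conditional *Hic2* allele and differed by the Cre. The methods of the study also let wildtype hearts carry 1 conditional and 1 normal allele, so the wildtype pools may not be FL/FL throughout. Each sample was a pool of several whole hearts with the blood inside them, from embryos without a visible phenotype, and the samples were described as independent biological replicates. The Cre is a knock-in that also removes 1 working copy of *Mesp1* and that acts in the anterior mesoderm and its descendants, which include part of the blood lineage. Hearts with the Cre and an intact *Hic2* were not analysed here, so loss of *Hic2* and the presence of the Cre allele cannot be told apart.

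Red cells make different globins at different ages. In the mouse, the first red cells, which are made in the yolk sac, use the embryonic genes *Hbb-y* and *Hbb-bh1*, and later red cells from the fetal liver use the adult genes *Hbb-b1* and *Hbb-b2*. The DNA-binding repressors keep the embryonic genes silent in later cells by bringing histone deacetylase and DNA methylation machinery to them, whereas the RNA-binding proteins of the group act in fetal-type cells and hold back the adult programme. In human erythroid cells HIC2, a zinc finger repressor related to HIC1, is known to repress *BCL11A*, and the comparison asks whether these genes differ in mouse hearts that had lost *Hic2*.

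The deleted gene was lower in each mutant array than in any wildtype array. *Hic2* was at 8.27, 8.23 and 8.37 log2 units in mutant hearts, against 9.35, 9.36 and 8.91 in wildtype hearts, a fold of 0.529 (log2 difference -0.92, SE 0.137, adjusted p = 0.125 with limma and Benjamini-Hochberg adjustment). *Mesp1* was under the intensity minimum in both genotypes. Over all clusters tested, 7 were higher and 0 lower in mutant hearts at an adjusted p under 0.05, and the median difference was -0.09 log2 units, so most clusters lay slightly below 0. The arrays correlated with each other at 0.988 to 0.993. The cardiomyocyte markers that define the tissue were bright, with 9 of 13 listed measured. Their median level was between 13.37 and 13.65 in mutant hearts and between 13.12 and 13.48 in wildtype hearts. The gene at the middle was not the same on every array. Gene by gene these markers differed little, with a median difference of -0.01, 4 above 0 and 5 below. The erythroid markers differed more. Of 18 listed, 16 were measured and all 16 had a difference above 0, where 71.8% of all clusters lay below 0. At an unadjusted p under 0.05, 13 were higher, beside 1.68% of all clusters. At an adjusted p under 0.05 there were 0, beside 0.0671% of all clusters in either direction. The summed linear intensity of the erythroid markers was 11535 to 16776 in mutant hearts and 6985 to 9786 in wildtype hearts. *Cldn13*, at a wildtype mean of 6.20, passed the intensity minimum through the mutant hearts alone. *Trim10*, at a wildtype mean of 6.63, was close to the minimum in wildtype hearts. Both are among the 13. In whole hearts, more cells of a type and more RNA per cell cannot be told apart, and the part that blood content plays in the levels of the regulators was not tested beyond a fit with the erythroid marker median as a covariate.

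Against that background the 9 regulators differed little. With limma and Benjamini-Hochberg adjustment over all 10439 clusters, 0 of 9 passed an adjusted p under 0.05, where 0.0671% of all clusters did, and the adjusted p of the 9 ran between 0.62 and 0.987. At an unadjusted p under 0.05, 0 of 9 were lower and 0 of 9 higher, against 5.90% and 1.68% of all clusters, and the methods' t-test also gave 0 of 9. The split over all clusters depends on scaling, with 616 lower and 175 higher on the values as deposited, and 385 lower and 459 higher when each array was centred on its median. In 0 of 9 did every mutant array lie below every wildtype array, as in 9.59% of all clusters, and in 0 of 9 did every mutant array lie above every wildtype array, as in 2.82%. The levels of the genotypes overlapped in all 9.

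**Figure D1:**
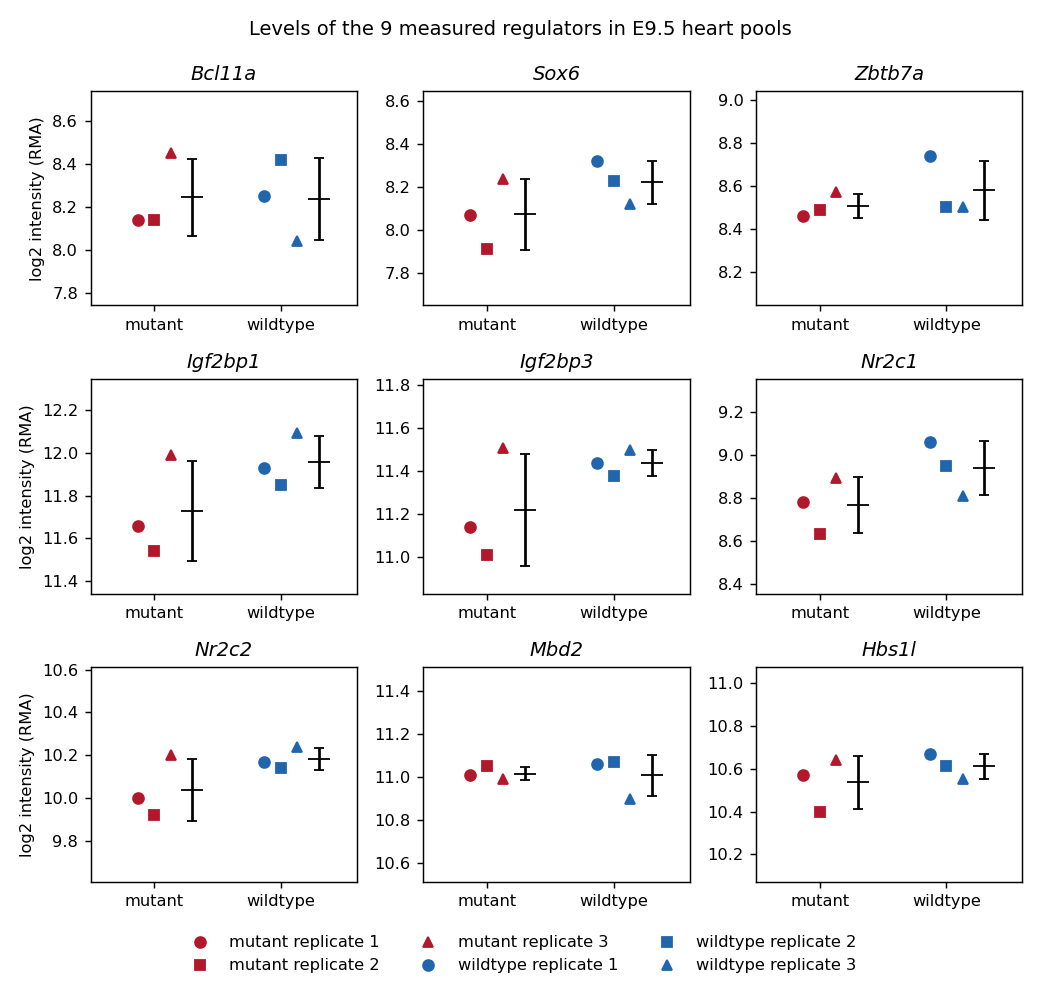
Levels of the 9 measured regulators on each array in log2 intensity, with mutant arrays to the left of wildtype arrays, points for single pools and bars for the mean and SD (n = 3 each). In every panel the mutant and wildtype points overlap, and for *Igf2bp1* and *Igf2bp3* mutant replicate 3 lies level with the wildtype points while the other mutant arrays lie below them.

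Most of the small differences lay on the same side of 0 as the array-wide median. For 7 of 9 the difference was below 0, beside 71.8% of all clusters. Their median was -0.14 log2 units, with a range between -0.22 and 0.01, and 5 of 9 lay below the median of all clusters. When each array was centred on its own median, the split moved to 5 below and 4 above 0, with 49.1% of all clusters below 0. The 95% interval of the difference lay inside 1.5-fold in either direction for 9 of 9, as it did for 84.0% of all clusters. The intervals of *Igf2bp1* and *Igf2bp3* reached 1.5-fold without mutant replicate 3, and likewise without wildtype replicate 1 or wildtype replicate 2. With the erythroid marker median as a covariate 1 interval, that of *Mbd2*, stayed inside, and 2 of 9, *Sox6* at -0.48 and *Nr2c1* at -0.51, were lower at an unadjusted p under 0.05, when 22.7% of all clusters were. The marker median did not overlap between the genotypes, so in that fit blood content and genotype cannot be told apart.

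**Figure D2:**
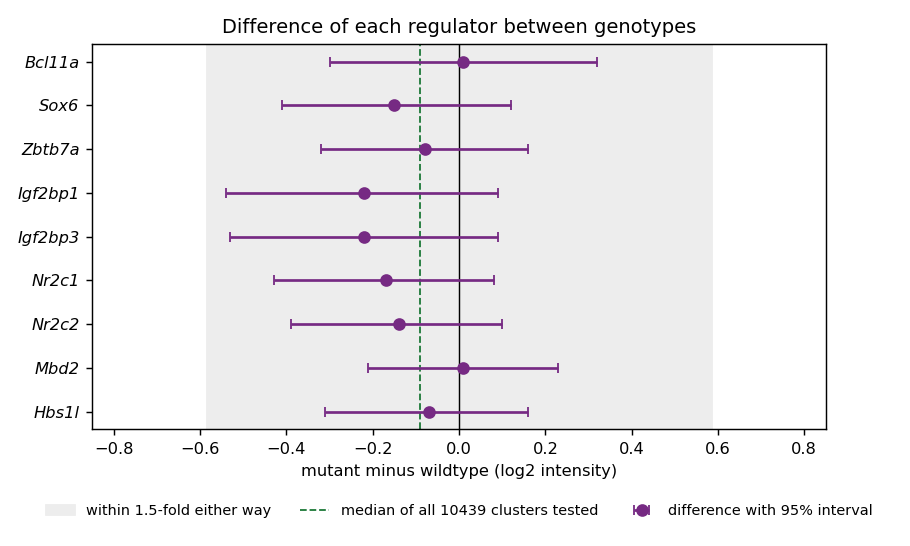
Mutant minus wildtype differences of the 9 measured regulators in log2 intensity, with 95% intervals from limma, beside the median of all 10439 clusters tested and the 1.5-fold limits. The estimates lie between -0.22 and 0.01, and every interval includes 0 and stays inside the limits.

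Among the DNA-binding repressors, *Bcl11a* was almost identical between the genotypes. It encodes a zinc finger repressor that silences embryonic globin in definitive red cells of the mouse and fetal globin in human cells, with help from the NuRD histone deacetylase complex. Its level was 8.14, 8.14 and 8.45 in mutant hearts, against 8.25, 8.42 and 8.04 in wildtype hearts. Both the highest array, mutant replicate 3, and the lowest, wildtype replicate 3, fall outside the range of the other genotype. The means were 8.24 ± 0.17 in mutant hearts and 8.23 ± 0.19 in wildtype hearts (SD, n = 3 each), a fold of 1.01 with a 95% interval between 0.814 and 1.24 (limma, adjusted p = 0.984). Because *Bcl11a* is also transcribed in cells other than red cells, the value is that of all cells of the pool together.

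*Zbtb7a*, which encodes the zinc finger repressor LRF, silences fetal globin in human adult erythroid cells apart from BCL11A, and also uses NuRD. It was at 8.46, 8.49 and 8.57 in mutant hearts, against 8.74, 8.50 and 8.50 in wildtype hearts. The mutant arrays lay within 0.11 of each other, and wildtype replicate 1 stood above the other 5. The means were 8.50 ± 0.06 and 8.58 ± 0.14 (SD, n = 3 each) in mutant and wildtype hearts, a difference of -0.08 (SE 0.106, interval between -0.32 and 0.16). Its sign turned under median centring, quantile normalisation and cyclic loess, where the difference was 0.01 in each.

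Start site sequence was examined for *Bcl11a* and *Zbtb7a*, because both are known targets of KLF1, an erythroid activator. These windows, from RefSeq on GRCm38.p6, run from 250 bases before the transcription start to 50 after it, on the plus strand, with capitals at each match, on either strand, to 1 of 3 motifs. CACCC is the core of sites that KLF1 binds. The erythroid GATA factors bind sites with AGATAA. The third motif, GGGCA, is the core of sites of HIC1, the close relative of HIC2. No matches overlapped.
*Bcl11a*, chr11:24080445-24080744: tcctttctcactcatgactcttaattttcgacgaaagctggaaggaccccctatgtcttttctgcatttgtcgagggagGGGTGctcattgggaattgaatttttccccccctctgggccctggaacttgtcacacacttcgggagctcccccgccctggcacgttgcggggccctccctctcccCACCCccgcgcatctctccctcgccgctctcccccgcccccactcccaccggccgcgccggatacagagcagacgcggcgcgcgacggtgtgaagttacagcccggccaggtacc
*Zbtb7a*, chr10:81136021-81136320: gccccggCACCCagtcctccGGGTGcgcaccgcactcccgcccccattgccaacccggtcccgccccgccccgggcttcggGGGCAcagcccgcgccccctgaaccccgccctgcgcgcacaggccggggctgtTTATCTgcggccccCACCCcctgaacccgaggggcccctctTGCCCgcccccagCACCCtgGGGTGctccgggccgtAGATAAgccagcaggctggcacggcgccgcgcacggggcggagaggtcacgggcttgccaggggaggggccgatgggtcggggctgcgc
The *Bcl11a* window held 2 matches to CACCC and 0 to the others, while the *Zbtb7a* window held 5 to CACCC, 2 to AGATAA and 2 to GGGCA. Such short motifs are common. Of 32851 promoters of the same length, 57.5% held CACCC, 53.5% held GGGCA and 11.2% held AGATAA. Promoters were read for 8 of the 10 regulators, 13 windows in all since *Sox6* has 6 starts, and CACCC was present in 7 of the 13 windows, GGGCA in 8 and AGATAA in 3. These matches describe the letters of the windows and say nothing about binding in the heart. Sequence farther from the starts was not read, so a window without a motif does not show that the gene lacks such a site.

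*Sox6* encodes a SoxD transcription factor that binds the *Hbb-y* promoter and represses it in definitive mouse red cells, where it works with BCL11A. It was at 8.07, 7.91 and 8.24 in mutant hearts, against 8.32, 8.23 and 8.12 in wildtype hearts. Mutant replicates 1 and 2 lay below all wildtype arrays, and mutant replicate 3 lay among them. The fold was 0.904, with a 95% interval between 0.753 and 1.08 (log2 difference -0.15, SE 0.115, adjusted p = 0.659 with limma).

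The orphan nuclear receptors *Nr2c1* and *Nr2c2* encode TR2 and TR4, which bind direct repeats in embryonic and fetal globin promoters as a pair and recruit DNMT1 and the histone demethylase LSD1. *Nr2c1* was at 8.78, 8.63 and 8.89 in mutant hearts, against 9.06, 8.95 and 8.81 in wildtype hearts. *Nr2c2* was at 10.003, 9.916 and 10.197 in mutant hearts, against 10.170, 10.137 and 10.238 in wildtype hearts. In both genes mutant replicates 1 and 2 lay below all wildtype arrays and mutant replicate 3 lay inside the wildtype range. The differences were close to each other, at -0.17 for *Nr2c1* (interval between -0.43 and 0.08) and -0.14 for *Nr2c2* (interval between -0.39 and 0.10). The adjusted p with limma was 0.626 for *Nr2c1* and 0.644 for *Nr2c2*.

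*Mbd2* encodes a reader of methylated CpG that carries NuRD to methylated promoters, and its loss is known to raise fetal globin in adult mice that carry the human locus. It was at 11.01, 11.05 and 10.99 in mutant hearts, against 11.06, 11.07 and 10.90 in wildtype hearts. It was the steadiest of the 9, with a pooled SD of 0.0719 that was lower than in all but 9.8% of the clusters tested. The difference was 0.01 (SE 0.0965), and its fold interval, between 0.862 and 1.17, was the narrowest of the group.

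The RNA-binding regulators had the largest differences of the group and also the largest pooled SDs, 0.186 for *Igf2bp1* and 0.187 for *Igf2bp3*, next to 0.181 for *Bcl11a*. *Igf2bp1* and *Igf2bp3* encode oncofetal proteins that bind messenger RNA and guard it from decay. In human adult erythroid cells, forced IGF2BP1 raises fetal globin and lowers BCL11A, and IGF2BP3 acts with LIN28B in fetal-type blood progenitors. *Igf2bp1* was at 11.66, 11.54 and 11.99 in mutant hearts, against 11.93, 11.85 and 12.09 in wildtype hearts. *Igf2bp3* was at 11.14, 11.01 and 11.51 in mutant hearts, against 11.44, 11.38 and 11.50 in wildtype hearts. In each gene mutant replicates 1 and 2 lay below all wildtype arrays. Mutant replicate 3 lay among the wildtype arrays for *Igf2bp1* and level with the highest of them for *Igf2bp3*. The difference was -0.22 in both, a fold of 0.856 for *Igf2bp1* (interval between 0.69 and 1.06) and 0.857 for *Igf2bp3* (interval between 0.691 and 1.06). The adjusted p with limma was 0.62 for *Igf2bp1* and 0.621 for *Igf2bp3*, and 0.485 for both with the replicate number as a block. Between same-numbered arrays, mutant minus wildtype was -0.27, -0.30 and -0.10 for *Igf2bp1* and -0.30, -0.37 and 0.00 for *Igf2bp3*. Of the 9 regulators 2, *Igf2bp1* and *Nr2c2* (-0.17, -0.22 and -0.04), were lower in all 3 pairs, a share near the 21.0% of all clusters. Without mutant replicate 3, *Igf2bp1* was at -0.35 (adjusted p = 0.193 with limma) and *Igf2bp3* at -0.37 (adjusted p = 0.185 with limma), both past an unadjusted p under 0.05, and the share of all clusters lower at an unadjusted p under 0.05 was then 16.7%. The yolk sac and liver endoderm markers, 3 of 5 measured, were also uneven between pools, with a summed linear intensity of 396, 189 and 1441 in mutant hearts, against 667, 195 and 174 in wildtype hearts. Mutant replicate 3 had the highest sum. Of these markers, *Alb* and *Afp* had a wildtype mean under the intensity minimum, at 4.75 and 5.92, and passed it through the mutant hearts alone. *Alb* was above the minimum in mutant replicate 3 only. The endothelial and endocardial markers, 8 of 8 measured, had a summed linear intensity of 15629, 15591 and 18676 in mutant hearts, against 18507, 18977 and 18049 in wildtype hearts. The brightest markers weigh most in this sum. In it mutant replicates 1 and 2 lay below all wildtype arrays and mutant replicate 3 lay level with them. *Igf2bp1*, *Igf2bp3*, *Sox6*, *Nr2c1* and *Nr2c2* had the same arrangement. The share of all clusters with this arrangement was not counted, so it is not shown to be particular to these genes. Not every marker had it. Of the 8 markers 3, *Kdr*, *Nfatc1* and *Npr3*, were lower in mutant hearts at an unadjusted p under 0.05, beside 5.90% of all clusters. At an adjusted p under 0.05 there were 0. In the same 3 every mutant array, replicate 3 included, lay below every wildtype array, as in 9.59% of all clusters. *Emcn* went the other way, at 0.11, with every mutant array above every wildtype array, as in 2.82% of all clusters. None of the 8 was under the intensity minimum, and their median difference was -0.23. The part of either tissue in the levels of the regulators was not tested.

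LIN28B, which had no level here, blocks the maturation of let-7, a family of small RNAs that in turn silences *Igf2bp1*, *Igf2bp3* and *Lin28b* itself. The family has 9 mature names on the 5p arm in RefSeq and 1 shared seed at bases 2 to 8, which is set in capitals in the examples printed here because it is the part that pairs with these messages.
mmu-let-7a-5p: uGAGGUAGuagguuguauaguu
mmu-let-7d-5p: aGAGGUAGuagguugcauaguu
mmu-let-7g-5p: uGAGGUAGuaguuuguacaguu
mmu-miR-98-5p: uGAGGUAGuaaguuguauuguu
The mature RNAs were not measured on these arrays. *Lin28a*, the paralogue that does the same in early embryos, was at 10.30, 9.93 and 10.32 in mutant hearts, against 10.27, 10.06 and 10.45 in wildtype hearts. The genotypes overlapped, with a difference of -0.08 and an interval between -0.41 and 0.26. Of the other let-7 processing and decay genes, 8 of 10 listed were measured (*Lin28a* among them), with 0 higher and 0 lower at an unadjusted p under 0.05 and a median of -0.17. The gene with the lowest p was *Dicer1*, which cuts the let-7 precursor, at -0.24 (interval between -0.53 and 0.05). Of 10 other let-7 targets, 9 were measured, with 0 higher and 0 lower and a median of -0.11. The lowest p was that of *Arid3a* at -0.24 (interval between -0.51 and 0.03). With the replicate number as a block the count of lower targets was 1, *Plagl2*, at -0.31 (adjusted p = 0.485 with limma). *Hmga2*, the best known of these targets and named here after its values were seen, also had mutant replicate 3 above the other mutant arrays, at 12.06, 11.98 and 12.63 in mutant hearts, against 12.42, 12.28 and 12.54 in wildtype hearts.

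*Hbs1l* encodes a partner of Pelota that frees stalled ribosomes, and in human the stretch between HBS1L and MYB is linked to the level of fetal haemoglobin. It was at 10.57, 10.40 and 10.64 in mutant hearts, against 10.67, 10.61 and 10.55 in wildtype hearts. The levels of the genotypes overlapped, and the fold was 0.95 with an interval between 0.806 and 1.12 (log2 difference -0.07, SE 0.104). The sign turned under median centring, to 0.01. *Myb*, its neighbour and a driver of progenitor growth, was mostly under the intensity minimum of 6.64, at 6.34, 6.42 and 6.53 in mutant hearts, against 6.69, 6.42 and 6.38 in wildtype hearts, and was not tested. Of this small list of locus and ribosome rescue genes, 3 of 5 were measured and 2 tested, with 0 higher and 0 lower at an unadjusted p under 0.05. The lower p was that of *Ahi1*, which lies on the far side of *Myb*, at -0.32 (interval between -0.77 and 0.14).

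A pattern across pools ran through most of the regulators and through some of the other lists too. Mutant replicate 2 was the lowest of the 6 arrays for 6 of 9, against 43.9% of all clusters, and mutant replicate 3 was the highest mutant array for 8 of 9, against 46.3%. *Mbd2* was the exception in the second count. Mutant replicate 2 was also lowest for 7 of 8 let-7 processing genes, 7 of 9 let-7 targets, 11 of 15 corepressors and 5 of 8 endothelial and endocardial markers. Mutant replicate 3 was the highest mutant array for 8 of 8 let-7 processing genes, 8 of 9 let-7 targets, 11 of 15 corepressors and 7 of 8 endothelial and endocardial markers, so the pattern was not particular to the regulators. Other lists lacked it in part or in full. Mutant replicate 2 was lowest for 7 of 14 relatives, 0 of 9 cardiomyocyte markers, 0 of 16 erythroid markers and 0 of 8 erythroid activators. For mutant replicate 3 as the highest mutant array, the counts were 9 of 14, 2 of 9, 14 of 16 and 6 of 8. The mean deviation of the 9 from their overall means was -0.09, -0.17 and 0.09 in mutant hearts, against 0.11, 0.05 and 0.01 in wildtype hearts. The median deviation of all clusters was -0.01, -0.10 and -0.01 in mutant hearts, against 0.13, 0.08 and -0.07 in wildtype hearts. Mutant replicate 2 was the lowest and wildtype replicate 1 the highest in both, whereas mutant replicate 3 stood higher for the regulators than for all clusters. Spread among mutant pools was larger than among wildtype pools for *Igf2bp3*, with a range of 0.50 in mutant hearts and 0.12 in wildtype hearts, and for *Nr2c2*, with 0.28 in mutant hearts and 0.10 in wildtype hearts. It ran the other way for *Zbtb7a*, with 0.11 in mutant hearts and 0.24 in wildtype hearts, and for *Mbd2*, with 0.06 in mutant hearts and 0.17 in wildtype hearts. The pooled SD lay below the median of all clusters, 0.148, for 6 of 9.

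**Figure D3:**
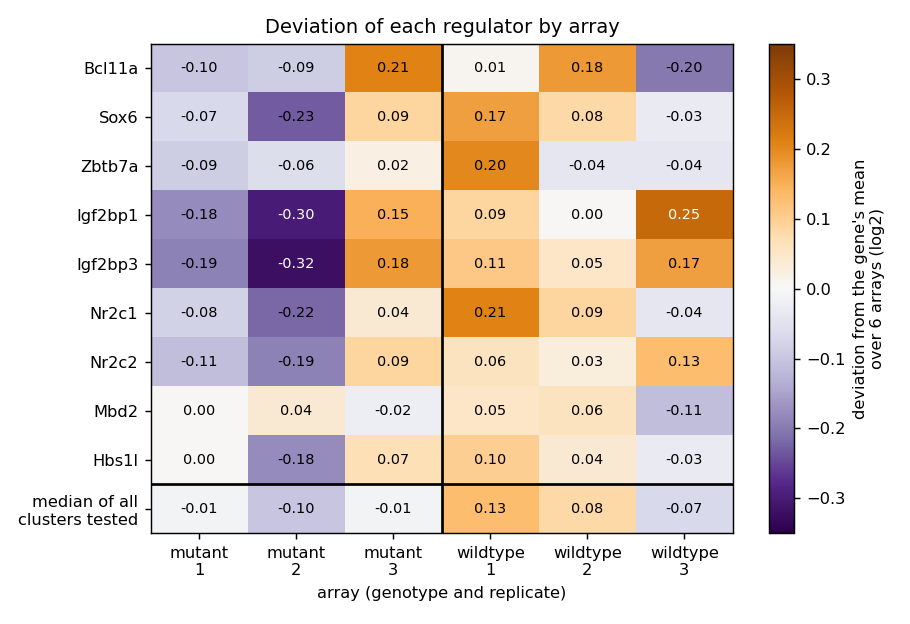
Deviation of each of the 9 regulators on each array from its mean over the 6 arrays, in log2 intensity, with mutant arrays to the left of wildtype arrays. Mutant replicate 2 is the lowest array for 6 regulators, and mutant replicate 3 is the highest mutant array for every one but *Mbd2*.

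Close relatives of the regulators gave 1 difference at an unadjusted p under 0.05. Of 16 listed, 14 were measured, with 0 higher, 1 lower and a median of -0.08, when 1.68% of all clusters were higher and 5.90% lower. The lower one was *Sox5*, the SoxD partner of *Sox6* in cartilage, at 7.19, 7.12 and 7.55 in mutant hearts, against 7.78, 7.83 and 7.63 in wildtype hearts. No mutant array reached the lowest wildtype array, as in 2 of the 14 relatives and 9.59% of all clusters. The difference of *Sox5* was -0.46 (SE 0.134, adjusted p = 0.598 with limma). The third SoxD gene, *Sox13*, had a difference that rounded to 0.00, and the other paralogues were at -0.08 for *Bcl11b*, 0.07 for *Zbtb7b* and -0.05 for *Mbd3*. *Igf2bp2* had no cluster of its own.

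The corepressors on which the group depends, the NuRD subunits, histone deacetylases, DNA methyltransferase and their partners, gave no difference at that level. Of 18 listed, 15 were measured, with 0 higher and 0 lower at an unadjusted p under 0.05 and a median of -0.13. The lowest p was that of *Chd3*, a NuRD remodeller, at -0.22 (interval between -0.53 and 0.08). *Dnmt1* and *Kdm1a*, the enzymes that TR2 and TR4 recruit and that were named after their values were seen, were at -0.17 and -0.13.

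The erythroid activators stood on the other side of 0. Of 9 listed, 8 were measured, 8 of 8 had a difference above 0, and 4 were higher at an unadjusted p under 0.05, beside 1.68% of all clusters, and 0 at an adjusted p under 0.05, with a median of 0.30. These were *Gfi1b* at 0.62 (SE 0.186), *Gata1* at 0.74 (SE 0.29), *Klf1* at 0.76 (SE 0.309) and *Nfe2* at 0.38 (SE 0.158), each with an adjusted p of 0.606 with limma. *Klf1*, which in red cells activates *Bcl11a* and *Zbtb7a*, was at 8.95, 8.58 and 9.48 in mutant hearts, against 8.87, 8.15 and 7.69 in wildtype hearts, so the genotypes overlapped through wildtype replicate 1. The count was 1, *Gfi1b*, without mutant replicate 3 and also without wildtype replicate 3, and 2 without mutant replicate 1 and also without wildtype replicate 2. It was 6 under median centring, quantile normalisation and cyclic loess, and 1 under the methods' t-test, where *Lmo2* passed and none of the 4 named here did. The erythroid markers also lay above 0, at a list median of 0.94. With their median as a covariate 0 activators were higher and 3 lower at an unadjusted p under 0.05. In that fit 0.786% of all clusters were higher and 22.7% lower. The marker median was at or above 8.95 in mutant hearts and at or below 8.74 in wildtype hearts.

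**Figure D4:**
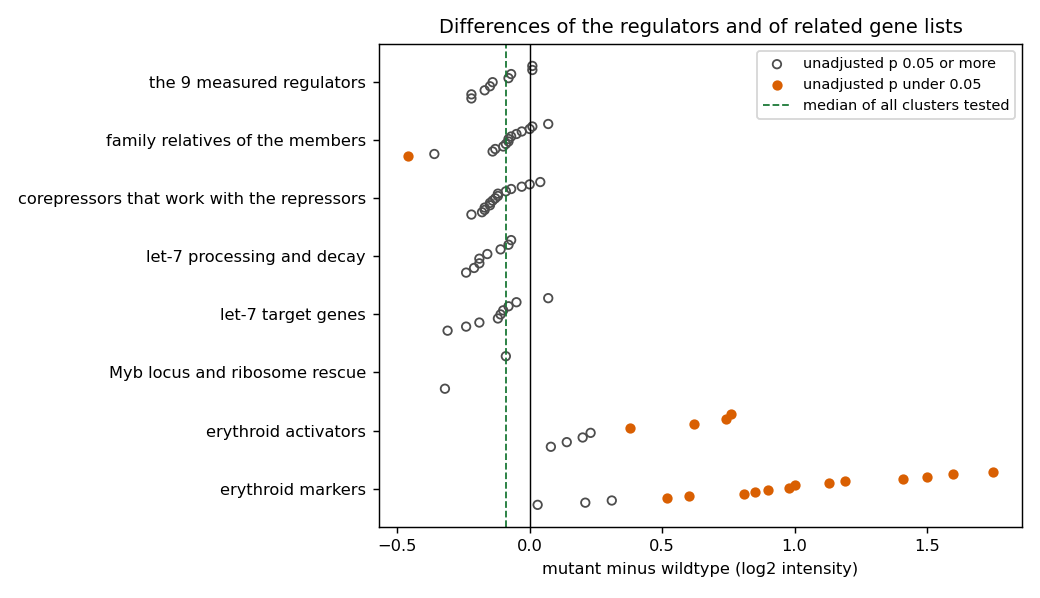
Mutant minus wildtype differences in log2 intensity of the 9 measured regulators and of the genes of each related list, with filled points for an unadjusted p under 0.05 and a dashed line at the median of all clusters, -0.09. Most of the regulators, their relatives, corepressors and let-7 genes lie near the dashed line. Farthest below it among these are *Sox5* at -0.46, *Nr2f1* at -0.36 and *Plagl2* at -0.31. The erythroid activators and markers lie above 0.

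Set beside the globin genes, the regulators had smaller differences than the adult cluster. *Igf2bp1* and *Igf2bp3*, at -0.22, did not differ less than the embryonic *Hbb-y*. The joint cluster of *Hbb-b1* and *Hbb-b2* was at 10.70, 11.05 and 10.95 in mutant hearts, against 7.94, 7.24 and 6.30 in wildtype hearts, a fold of 13.4 (adjusted p = 0.00968 with limma and Benjamini-Hochberg adjustment). Wildtype replicate 3 lay under the intensity minimum of 6.64, so the size of the fold rests in part on a level near the floor. The embryonic *Hbb-y* was at 14.25, 14.25 and 14.26 in mutant hearts, against 14.22, 14.07 and 14.03 in wildtype hearts. The difference was 0.15 (adjusted p = 0.626 with limma), and its SD among mutant pools was 0.01. Whether so bright a signal lay near the upper limit of the array, where differences shrink, was not tested. The joint cluster of *Hbb-bh1* and *Hbb-bh2* had a difference of 0.64 (adjusted p = 0.46 with limma).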

How the data were processed

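RNA from pooled E9.5 hearts had been hybridised to Affymetrix Mouse Exon 1.0 ST arrays, 3 for mutant and 3 for wildtype hearts. The deposited log2 values were made by the authors with RMA at gene level from core gene predictions in Affymetrix Expression Console. RMA corrects background and sets arrays to a common distribution, so a shift shared by most genes is reduced. Neither the version of that software nor a genome build was named, and both count as not given in the sources used here. Precision is limited by the number of arrays.

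Tested clusters had a gene and, in the genotype with the higher mean, a linear mean above 100. Mutant hearts were set against wildtype hearts by the moderated test of limma 3.58.1 (R 4.3.3), and p was adjusted by Benjamini-Hochberg over the clusters tested. Intervals are at 95%. Levels of different clusters share no common scale. Where a gene had several clusters to itself, the brightest stood for it. Of 14996 clusters annotated to 1 gene, 14941 matched the GRCm38.p6 gene table. Clusters shared by several genes were used for the globins.

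The regulators and lists were chosen with earlier results of these data known. Named by rule were the regulators, their direct paralogues, *Hic2*, *Mesp1* and the globins. In each list the rule took up to 4 genes with an unadjusted p under 0.05, or else the gene with the lowest. It was not followed throughout for the cell type markers. Other genes, among them *Emcn*, *Nr2f1*, *Plagl2*, *Lmo2*, *Hmga2*, *Dnmt1* and *Kdm1a*, were named after their values were seen. Alternatives were the methods' t-test on log2 and on linear values, other intensity minimums and normalisations, an intensity trend, the erythroid marker median as a covariate, all clusters of a gene, a replicate block and each array left out. The labels do not say what a replicate number stands for. Same-numbered arrays were taken as pairs from these same values, since their deviations correlated at 0.311, 0.142 and 0.458 over clusters. Different-numbered arrays reached 0.303. Mutant replicate 2 correlated better with wildtype replicate 1, at 0.231, than with wildtype replicate 2, so the pairing is uncertain. The fit was tested on simulated data. Figures were drawn with matplotlib 3.10.9.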

Additional observations from a re-analysis of the deposited data

How the results depend on the processing

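Across 18 alternatives for each of the 9 regulators, 162 fits in all, 0 passed an adjusted p under 0.05 with limma or the methods' t-test, and the lowest adjusted p was 0.177. The methods' t-test on log2 values passed 0 clusters after Benjamini-Hochberg adjustment, and without it 423 lower and 165 higher clusters. The sign turned in 12 fits. These were *Zbtb7a* under median centring, quantile normalisation, cyclic loess and quantile normalisation with the replicate block, at 0.01 in each, *Hbs1l* under median centring at 0.01, and *Bcl11a* at -0.29 and *Mbd2* at -0.06 with the erythroid covariate. Leaving out 1 array gave -0.09 to 0.10 for *Bcl11a*, -0.05 to 0.04 for *Mbd2* and -0.12 to 0.00 for *Zbtb7a*. With the replicate block alone 0 regulators were lower at an unadjusted p under 0.05, the median of the regulators was -0.14, and *Plagl2* was the single call that moved among the regulators and related lists.

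The count of regulators lower at an unadjusted p under 0.05 was 0 to 2 when 1 array was left out, with 2 without mutant replicate 3 (*Igf2bp1* and *Igf2bp3*), while the share of all clusters ran between 1.72% and 18.2% and was 16.7% without mutant replicate 3. It was 1 (*Igf2bp1*), beside 7.8% of all clusters, under quantile normalisation with the replicate block, which was chosen after seeing the data. With the erythroid covariate it was 2, *Sox6* at -0.48 and *Nr2c1* at -0.51, both at an adjusted p of 0.177 with limma, when 22.7% of all clusters were lower. The median of the regulators was then -0.31, beside -0.27 for all clusters, and 1 interval lay inside 1.5-fold. The number of intervals inside 1.5-fold was 7 to 9 when 1 array was left out, and *Igf2bp1* and *Igf2bp3* reached the limit without mutant replicate 3, wildtype replicate 1 or wildtype replicate 2. In the related lists, without mutant replicate 3, 4 corepressors, 3 let-7 processing genes, 3 let-7 targets and 1 gene of the *Myb* list were lower, when 16.7% of all clusters were. Without wildtype replicate 3 it was 1 corepressor and 1 let-7 target, when 18.2% of all clusters were lower. With the erythroid covariate it was 4 let-7 processing genes, 1 let-7 target and 1 gene of the *Myb* list, when 22.7% of all clusters were lower.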
